A study of Mus musculus with 12 samples.

Results

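The genes followed were 8 genes of myoblast adhesion and fusion: Mymk, the cadherins Cdh15 and Cdh2, the cadherin-binding co-receptors Cdon and Boc, the junctional adhesion molecules Jam2 and Jam3, and Ncam1. They were listed by name, with earlier results of these data known, and all 8 were found among the 19937 genes measured, each on 1 probe set. The samples were mouse tumours driven by an inducible YAP1, a transcriptional coactivator that Hippo kinases hold back, in a study of rhabdomyosarcoma, a cancer with features of skeletal muscle. Each group had 3 arrays. TUM were allograft tumours at day 0 of doxycycline withdrawal, with the transgene still induced. OFF3 and OFF6 were tumours of the same kind 3 and 6 days after doxycycline was taken from the host. CTL was muscle from the hindlimbs of transgenic mice that were never induced. The genotype of donor and CTL mice, on C57BL/6, was Myf5Cre with R26-LSL-rtTA and Col1a-Teto-hYAP1 S127A, so every group, CTL included, carried the transgene, and the S127A change removes a site at which Hippo kinases restrain YAP1. Cre under Myf5 limits the transgene to cells with a Myf5 history. Donor mice had 4 weeks of doxycycline before interstitial cells of their hindlimb muscle were placed in the gastrocnemius of doxycycline-treated NOD/SCID mice, a host without working T and B cells but with its own muscle, vessels, stroma and macrophages. How many donors were used and whether replicates came from separate animals is not given in the labels used here, and the p-values then speak only of the spread from array to array. Animal ages are not given there either.

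Skeletal muscle fibres form when single myoblasts stick to each other, align and merge their membranes. Cadherins and immunoglobulin-type adhesion molecules hold the partners together, and Cdon and Boc at these contacts signal towards differentiation. Mymk encodes myomaker, a membrane protein that starts the mixing of the outer membrane layers, and Mymx encodes myomixer, a small protein that completes the pore. In healthy adult muscle fusion is quiet and resumes in regeneration.

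Of the 8 genes, RefSeq promoter windows of GRCm38.p6 were matched for Cdh15 and Cdon. The Cdh15 window is shown because Cdh15 is the muscle cadherin of the set. It covers the 250 bases before the annotated start, chr8:122848124-122848373 on the plus strand, and the capitals mark E-boxes, the letters CANNTG that myogenic factors and many other helix-loop-helix proteins bind.
Cdh15 upstream: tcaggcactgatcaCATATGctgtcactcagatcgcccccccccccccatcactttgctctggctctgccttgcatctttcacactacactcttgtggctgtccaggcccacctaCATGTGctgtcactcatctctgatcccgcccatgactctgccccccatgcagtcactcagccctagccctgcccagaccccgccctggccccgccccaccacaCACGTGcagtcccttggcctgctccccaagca
The window held 3 E-boxes, whose first bases lay 236, 135 and 32 bases before the start, against a median of 1 over all windows. At least 1 E-box was found in 66.2% of the 32851 mouse windows of the same length. The share of windows with 3 or more was not counted. The form CAGCTG, which MyoD and myogenin prefer, was not among its letters and stood in 13% of all windows. The TEAD motif CATTCC, read on both strands, was likewise not in it and stood in 12.6%. Such matches describe letters and not binding.

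The arrays gave no read depth. Median intensity per array ran from 86.74 to 93.05. OFF6 replicate 2 stood apart from its group. Across genes its mean correlation was 0.991 with the other OFF6 arrays and 0.995 with the OFF3 arrays, so the main OFF6 differences are given with and without it. The labelled tissues were checked with 12 adult fibre markers, whose mean log2 intensity ran from 10.79 to 10.90 in TUM, 11.69 to 12 in OFF3, 11.76 to 11.87 in OFF6 and 12.86 to 12.92 in CTL. All 12 were lower in TUM than in CTL, beside 45.9% of all genes, led by Pvalb (-3.22 ± 0.40) and Myh7 (-3.08 ± 0.18). The mouse Yap1 probe set, whose reading of the human transgene is not known, ran from 9.83 to 9.88 in TUM, 9.52 to 9.61 in OFF3 and 9.50 to 9.68 in OFF6, against 9.43 to 9.67 in CTL.

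Levels below are log2 of RMA intensity, and a difference is a log2 difference ± its standard error. A gene rose or fell where limma's Benjamini-Hochberg adjusted p, taken over all 19937 genes, was under 0.05. In these bulk samples a gene carried by fewer cells and a gene with less RNA per cell cannot be told apart.

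In day 0 tumours against muscle, 6 of the 8 genes were higher and 1 was lower. Cdh2 was 20.6-fold higher, Mymk 6.45-fold, Ncam1 5.38-fold, Cdh15 4.51-fold, Boc 2.32-fold and Cdon 1.60-fold. Jam2 was 2.12-fold lower, and Jam3 did not pass. Over all genes 30.3% were higher and 45.9% lower. The median difference of the 8 genes was 1.69, beside -0.15 over all genes. The TUM and CTL arrays did not overlap in 7 of the 8 genes, beside 82.7% of all genes, so this separation is no feature of the set. A call of at least 2-fold in either direction was met by 6 of the 8, beside 22.3% of all genes.

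After withdrawal the set split. At day 3, Mymk, Jam2, Jam3 and Ncam1 were higher than at day 0 and Cdh2, Cdh15 and Cdon lower, beside 13.4% of all genes higher and 16% lower. At day 6 the same 4 were higher, beside 14.9%, and Cdh2 and Cdon were lower, beside 16.6%. The counts were also 4 and 2 without OFF6 replicate 2, beside 16.2% and 18.4%. Boc did not pass at either time. The median difference of the 8 from TUM was 0.14 at day 3 and 0.29 at day 6, beside 0.02 and 0.05 over all genes. All 8 genes had OFF3 arrays clear of the TUM arrays, beside 44.8% of all genes, and 7 had OFF6 arrays clear of them, beside 48.5%. Both counts include Boc, which did not pass. For Cdon at day 3 the gap was narrow, with the lowest TUM array at 6.094 and the highest OFF3 array at 6.086. A called difference of at least 2-fold was reached by 1 of the 8 at day 3, beside 3.81% of all genes, and by 2 at day 6, beside 4.47%. The OFF3, OFF6 and CTL comparisons share the TUM arrays, so their values are set side by side only.

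**Figure D1:**
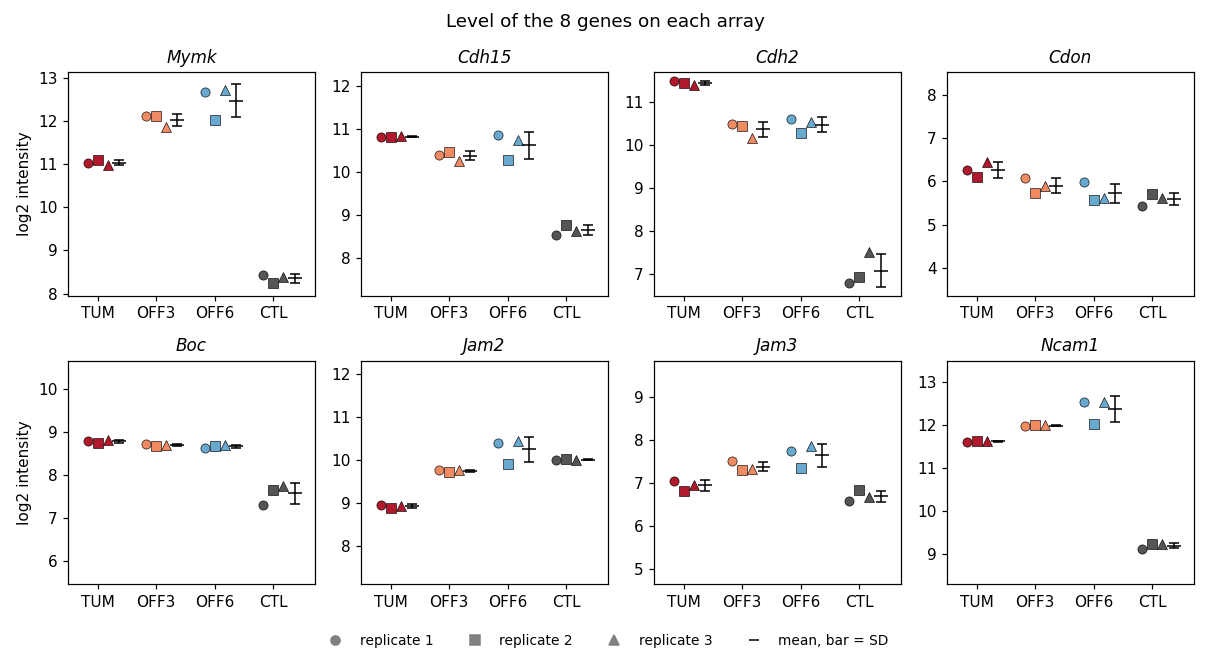
Log2 intensity of the 8 genes on each array, in TUM, OFF3, OFF6 and CTL (days 0, 3 and 6 off doxycycline, and uninduced muscle). Points are arrays, marked by replicate, the bar is the group mean with its SD (n = 3), and every panel spans the same number of log2 units. Mymk and Ncam1 climb from TUM to OFF6 and lie far above CTL, Cdh2 is highest in TUM, and Jam2 is lowest in TUM.

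The fusion protein gene Mymk had levels of 11.03, 11.11 and 10.99 in TUM, 12.11, 12.11 and 11.88 in OFF3 and 12.67, 12.03 and 12.72 in OFF6, against 8.43, 8.24 and 8.39 in CTL. All 9 tumour arrays lay above the 3 muscle arrays, and every array after withdrawal lay above every TUM array. Mymk was higher in TUM than in CTL by 2.69 ± 0.15 (adjusted p = 3.59e-09). It was higher in OFF3 than in TUM by 0.99 ± 0.15 (adjusted p = 0.000274) and in OFF6 than in TUM by 1.43 ± 0.15 (adjusted p = 1.1e-05), the last being 2.70-fold. Against muscle it was 12.8-fold higher in OFF3 and 17.4-fold higher in OFF6. OFF6 and OFF3 overlapped, through OFF6 replicate 2, and differed by 0.44 ± 0.15 (95% interval 0.12 to 0.77, adjusted p = 0.0799). Without that array the difference was 0.66 ± 0.09 and passed (adjusted p = 0.000152, from 7.4e-06 to 0.322 over the alternatives), and OFF6 minus TUM was 1.66 ± 0.09.

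Mymx, the partner of Mymk in pore formation and not in the set of 8, had levels of 7.60, 7.55 and 7.71 in TUM, 9.04, 8.99 and 9.11 in OFF3 and 9.67, 9.32 and 9.72 in OFF6, against 7.30, 7.16 and 7.04 in CTL. None of the 4 groups overlapped. It was higher in TUM than in CTL by 0.45 ± 0.10 (1.36-fold, adjusted p = 0.00169). It was higher than in TUM by 1.43 ± 0.10 in OFF3 and by 1.95 ± 0.10 in OFF6, which is 2.69-fold and 3.86-fold. The day 6 difference was 2.07 ± 0.08 without OFF6 replicate 2. OFF6 was above OFF3 by 0.52 ± 0.10 (adjusted p = 0.0104). That call was lost without OFF6 replicate 1 (0.47, adjusted p = 0.0566) or OFF6 replicate 3 (0.45, adjusted p = 0.0609), and when the model held no arrays but those 6 (adjusted p = 0.0976), and adjusted p was 0.000123 without OFF6 replicate 2.

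Cdh15 encodes M-cadherin, the adhesion protein of satellite cells and myoblasts. Its levels were 10.82, 10.81 and 10.83 in TUM, 10.40, 10.46 and 10.26 in OFF3 and 10.85, 10.27 and 10.74 in OFF6, against 8.54, 8.78 and 8.62 in CTL. All tumour arrays lay above muscle, by 2.17 ± 0.12 in TUM (adjusted p = 4.9e-09), 1.72 ± 0.12 in OFF3 and 1.97 ± 0.12 in OFF6. Every OFF3 array lay below TUM, with a difference of -0.45 ± 0.12 (1.36-fold lower, adjusted p = 0.0158). The call was lost without OFF3 replicate 3 (-0.39, adjusted p = 0.064, from 2.5e-05 to 0.064 over the alternatives). OFF6 overlapped both TUM (-0.20, interval -0.47 to 0.07) and OFF3 (0.25, interval -0.02 to 0.52). Without OFF6 replicate 2, Cdh15 was above OFF3 by 0.42 ± 0.08 (adjusted p = 0.0027, from 0.000775 to 0.69 over the alternatives) and differed from TUM by -0.03 ± 0.08.

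Cdh2 encodes N-cadherin, a cadherin of nerve, heart and developing muscle. Its levels were 11.49, 11.43 and 11.39 in TUM, 10.47, 10.44 and 10.16 in OFF3 and 10.60, 10.27 and 10.52 in OFF6, against 6.79, 6.93 and 7.50 in CTL. TUM was the highest group and CTL the lowest, with no overlap between them and the withdrawal groups. The difference of 4.36 ± 0.16 from CTL in TUM (adjusted p = 6.9e-11) was larger than that of any other of the 8 genes in this comparison. Cdh2 fell to a mean of 10.36 in OFF3, against 11.44 in TUM, a difference of -1.08 ± 0.16 (2.11-fold lower, adjusted p = 0.000206). OFF6 differed from TUM by -0.97 ± 0.16 (1.96-fold lower, adjusted p = 0.000398), and by -0.87 ± 0.17 without OFF6 replicate 2. OFF6 and OFF3 overlapped and differed by 0.11 (interval -0.23 to 0.45). Against muscle Cdh2 remained 9.74-fold higher in OFF3 and 10.5-fold higher in OFF6.

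Cdon and Boc encode related immunoglobulin-type receptors that bind cadherins, and both also serve as co-receptors for hedgehog ligands. Cdon had levels of 6.27, 6.09 and 6.45 in TUM, 6.09, 5.74 and 5.89 in OFF3 and 5.98, 5.57 and 5.63 in OFF6, against 5.44, 5.71 and 5.62 in CTL. TUM was highest and the OFF6 range overlapped that of CTL. Every array lay below the median gene level of 7.18, and no detection call was made, so these are small differences at a low level. Cdon was higher in TUM than in CTL by 0.68 ± 0.13 (adjusted p = 0.000418). It was lower than in TUM by day 6 (-0.55 ± 0.13, adjusted p = 0.00564), and -0.47 ± 0.14 without OFF6 replicate 2. The day 3 difference from TUM, -0.37 ± 0.13, passed narrowly (adjusted p = 0.0495). It was lost without TUM replicate 1 (-0.37), TUM replicate 3 (-0.28), OFF3 replicate 2 (-0.28) or OFF3 replicate 3 (-0.36), with adjusted p from 8.59e-05 to 0.203 over the alternatives. OFF6 minus CTL was 0.13 (interval -0.15 to 0.41) and did not pass.

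OFF3 minus CTL for Cdon was 0.31 ± 0.13 (adjusted p = 0.0452), and this call was lost without CTL replicate 1 (0.24), CTL replicate 3 (0.33), OFF3 replicate 1 (0.22) or OFF3 replicate 3 (0.32). It was also lost with arrays centred on their median (0.25) and with array weights (0.14). Boc was steadier, with levels of 8.79, 8.74 and 8.81 in TUM, 8.72, 8.66 and 8.69 in OFF3 and 8.62, 8.68 and 8.69 in OFF6, against 7.29, 7.66 and 7.75 in CTL. The tumour arrays lay within a narrow band above all 3 muscle arrays. Boc was higher than CTL by 1.21 ± 0.10 in TUM (adjusted p = 1.15e-07), 1.12 ± 0.10 in OFF3 and 1.09 ± 0.10 in OFF6. Differences from TUM were -0.09 in OFF3 (interval -0.30 to 0.12, adjusted p = 0.573) and -0.12 in OFF6 (interval -0.33 to 0.09, adjusted p = 0.383, and -0.13 without OFF6 replicate 2), although the arrays did not overlap at either time.

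Jam2 and Jam3 encode JAM-B and JAM-C, adhesion proteins that bind each other across cells. In zebrafish both are needed for fusion of fast muscle precursors, and in mammals they are also known from endothelium. Jam2 had levels of 8.96, 8.88 and 8.92 in TUM, 9.77, 9.72 and 9.75 in OFF3 and 10.39, 9.91 and 10.43 in OFF6, against 10.00, 10.03 and 10.00 in CTL. It was the only member of the 8 that was lower in TUM than in CTL (-1.09 ± 0.11, adjusted p = 1.3e-06). It was higher than in TUM by 0.83 ± 0.11 in OFF3 (1.77-fold, adjusted p = 9.66e-05) and by 1.32 ± 0.11 in OFF6 (2.50-fold, adjusted p = 1.56e-06), with no overlap at either time. The day 6 difference was 1.49 ± 0.06 without OFF6 replicate 2. The OFF6 arrays lay on both sides of CTL (0.23 ± 0.11, adjusted p = 0.0761), and without OFF6 replicate 2 they were above it by 0.40 ± 0.06 (adjusted p = 4.71e-05, up to 0.292 over the alternatives).

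Jam2 was higher in OFF6 than in OFF3 by 0.49 ± 0.11 (adjusted p = 0.0161). This call was lost without OFF3 replicate 2 (0.48, adjusted p = 0.0572), OFF6 replicate 1 (0.42, adjusted p = 0.0836) or OFF6 replicate 3 (0.40, adjusted p = 0.0877), and when the model held no arrays but those 6 (adjusted p = 0.132). Without OFF6 replicate 2 it was 0.66 ± 0.06 (adjusted p = 6.15e-06, from 2.03e-07 to 0.132 over the alternatives). OFF3 minus CTL for Jam2 was -0.26 ± 0.11 with adjusted p = 0.0499, and leaving out any of the 6 arrays ended that call (-0.27 to -0.24, adjusted p = 0.0841 to 0.11). The groups themselves did not overlap.

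Jam3 had levels of 7.06, 6.82 and 6.96 in TUM, 7.51, 7.30 and 7.34 in OFF3 and 7.76, 7.34 and 7.85 in OFF6, against 6.59, 6.84 and 6.67 in CTL. TUM and CTL overlapped, while all arrays after withdrawal lay above both. Every TUM and CTL array of Jam3 lay below the median gene level of 7.18, and no detection call was made. The difference of 0.25 ± 0.12 between TUM and CTL did not pass (interval -0.02 to 0.51, adjusted p = 0.0849), and passed with array weights (0.28) and when the model held no arrays but those 6 (adjusted p = 0.0282, from 0.00706 to 0.299 over the alternatives). Jam3 was higher than in TUM by 0.44 ± 0.12 in OFF3 (adjusted p = 0.0168) and by 0.70 ± 0.12 in OFF6 (adjusted p = 0.000739), the last being 0.86 ± 0.10 without OFF6 replicate 2. The day 3 call was lost without TUM replicate 2 (0.37, adjusted p = 0.0729) or OFF3 replicate 1 (0.37, adjusted p = 0.0614). OFF6 minus OFF3 was 0.27 (SE 0.12, adjusted p = 0.204), and 0.42 ± 0.10 without OFF6 replicate 2 (adjusted p = 0.00664, from 6.39e-05 to 0.589 over the alternatives).

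Endothelial markers moved with Jam2 in part. Jam3 shared their rise from TUM to OFF3 but not their lower level in TUM than in CTL. Of 10 endothelial markers, 10 were lower in TUM than in CTL, beside 45.9% of all genes, led by Tek (-1.71 ± 0.13) and Vwf (-1.66 ± 0.13). In OFF3 10 were higher than in TUM, beside 13.4% of all genes, where Vwf (1.18 ± 0.13) and Tek (0.88 ± 0.13) again led. Their mean level ran from 8.44 to 8.48 in TUM, 9.10 to 9.14 in OFF3 and 8.77 to 8.99 in OFF6, against 9.33 to 9.36 in CTL. The 8.99 was OFF6 replicate 2. From day 3 to day 6 the markers went the other way from Jam2. Of the 10, 6 were lower in OFF6 than in OFF3, beside 4.38% of all genes, and 0 higher, beside 6.05%. The falls were led by Cdh5 (-0.54 ± 0.07) and Emcn (-0.37 ± 0.10). The Cdh5 call was lost when the model held no arrays but those 6 (adjusted p = 0.0561). The Emcn call was lost in the same way (adjusted p = 0.172), with the replicate block (adjusted p = 0.0632), and without OFF6 replicate 1 (-0.27), OFF6 replicate 3 (-0.35), OFF3 replicate 1 (-0.32), OFF3 replicate 2 (-0.42) or OFF3 replicate 3 (-0.37). Without OFF6 replicate 2 both calls held, with Cdh5 at -0.60 ± 0.06 (adjusted p = 3.59e-05) and Emcn at -0.49 ± 0.08 (adjusted p = 0.000642). Every endothelial marker but Kdr was then lower in OFF6 than in OFF3, beside 12.4% of all genes. No array value is a true 0, and the part of endothelial cells in the Jam2 and Jam3 levels was not tested.

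Ncam1 encodes a homophilic adhesion molecule of nerve and of myoblasts, which also reappears on regenerating and denervated fibres. Its levels were 11.60, 11.61 and 11.62 in TUM, 11.97, 11.98 and 11.98 in OFF3 and 12.53, 12.02 and 12.53 in OFF6, against 9.12, 9.22 and 9.22 in CTL. The 4 groups did not overlap, and the spread within TUM and within OFF3 was very small. Ncam1 was higher in TUM than in CTL by 2.43 ± 0.11 (adjusted p = 5.41e-10), and was 6.92-fold and 9.03-fold above CTL in OFF3 and OFF6. It was higher than in TUM by 0.75 ± 0.11 in OFF6 (1.68-fold, adjusted p = 0.000202), and 0.92 ± 0.06 without OFF6 replicate 2.

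At day 3 Ncam1 was above TUM by 0.36 ± 0.11 (1.29-fold, adjusted p = 0.025). That call was lost when any 1 of the 6 arrays was left out (0.36 to 0.37, adjusted p = 0.0519 to 0.0724) and with arrays centred on their median (0.31, adjusted p = 0.0644). OFF6 minus OFF3 was 0.38 ± 0.11 (adjusted p = 0.0447). It was lost without OFF3 replicate 1 (0.38), OFF3 replicate 2 (0.39), OFF3 replicate 3 (0.39), OFF6 replicate 1 (0.30) or OFF6 replicate 3 (0.30), and was 0.55 ± 0.06 without OFF6 replicate 2 (adjusted p = 2.6e-05, from 1.11e-06 to 0.206 over the alternatives). Of 8 Schwann cell and nerve markers 5 were measured. In TUM against CTL 1 was higher and 4 lower, beside 30.3% and 45.9% of all genes, the lower ones led by Mbp (-1.0 ± 0.21) and Sox10 (-0.71 ± 0.10). In OFF3 and OFF6 against TUM 0 of the 5 passed limma's adjusted test, and at an unadjusted p under 0.05 they were 0 in OFF3 and 1 higher and 1 lower in OFF6. Leaving out OFF6 replicate 2 gave 1 lower in OFF6 by the adjusted test. Their mean level was 7.34 to 7.46 in TUM, 7.39 to 7.85 in OFF3 and 7.39 to 7.79 in OFF6, against 7.80 to 7.92 in CTL. The 7.79 was OFF6 replicate 2.

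**Figure D2:**
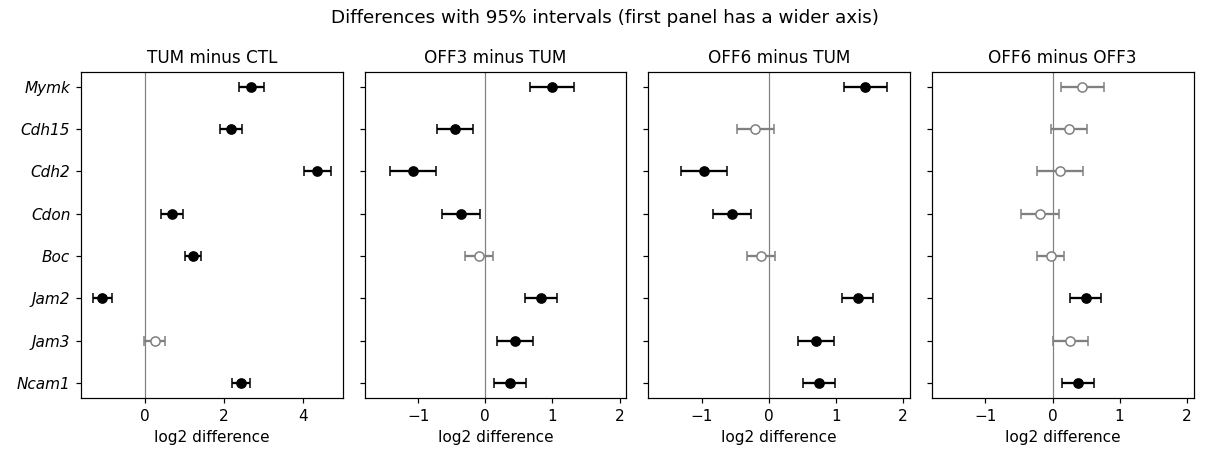
Log2 differences of the 8 genes in 4 comparisons, with 95% intervals from the model of 12 arrays; filled points passed the test and open points did not. TUM minus CTL has a wider axis, with Cdh2 at 4.36, and in OFF3 minus TUM and OFF6 minus TUM Mymk, Jam2, Jam3 and Ncam1 lie above 0 and Cdh2 and Cdon below.

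From day 3 to day 6, 2 of the 8 genes were higher, Jam2 and Ncam1, beside 6.05% of all genes, and 0 were lower, beside 4.38%. At limma's unadjusted p under 0.05 the numbers were 3 and 0. The median difference was 0.26, beside 0.02 over all genes. The arrays of the 2 days did not overlap in 2 of the 8 genes, beside 21.2% of all genes, and none was called at 2-fold, beside 0.542%. Without OFF6 replicate 2 the number higher was 5, with Mymk, Cdh15 and Jam3 added, beside 12% of all genes, and 0 were lower, beside 12.4%. This array was the lowest of its group on 7 of the 8 genes, all but Boc, and it lay within the OFF3 range on Mymk, Cdh15, Cdh2, Boc and Jam3. Which of the OFF6 arrays is typical of day 6 was not tested.

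**Figure D3:**
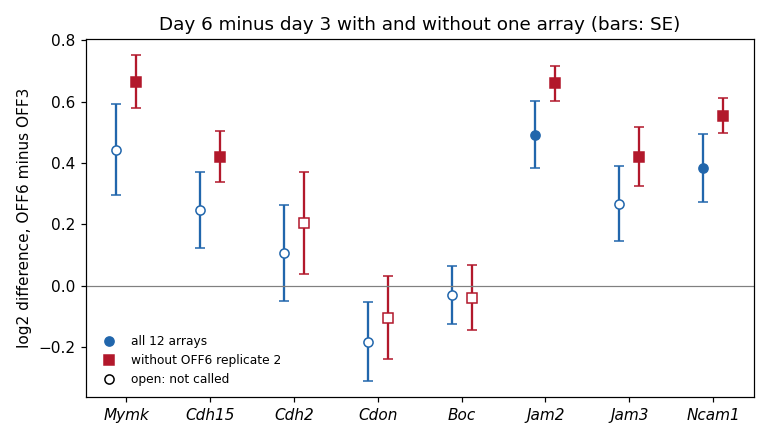
Log2 difference between OFF6 and OFF3 for the 8 genes, with all 12 arrays (circles) and without OFF6 replicate 2 (squares); bars are SE and open symbols did not pass. With all arrays 2 genes pass, and without the array 5 pass, Mymk moving to 0.66 and Jam2 to 0.66.

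Against muscle, 7 of the 8 genes were higher in OFF3, beside 28.4% of all genes, and 1 was lower, beside 41.4%. In OFF6 the number higher was 6, beside 28.1%, and 0 were lower, beside 36.1%, with the same 2 counts at limma's unadjusted p under 0.05. It was 7 higher without OFF6 replicate 2, beside 28.2%, and 0 lower, beside 33.1%. In both comparisons 5 of the 8 were called and at least 2-fold different, beside 18.9% of all genes in OFF3 and 17.2% in OFF6. Arrays were clear of CTL in 8 genes in OFF3, beside 72.4%, and in 6 in OFF6, beside 68.5%.

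Likeness between genes was measured as the root mean square difference in log2 level over the 12 arrays, after each gene was set relative to its own mean. Within the set the smallest value was that of Cdon and Boc at 0.39, followed by Boc and Jam3 at 0.40, Boc and Cdh15 at 0.41 and Mymk and Ncam1 at 0.42. The measure stays small for genes that move little, so this order does not rank likeness of course. Group means spanned 0.68 for Cdon, 0.95 for Jam3 and 1.21 for Boc, against 4.12 for Mymk and 3.17 for Ncam1. In OFF6 minus CTL, Cdon was at 0.13 and Boc at 1.09. Nearest to Mymk among all named genes were Chrng at 0.18, which encodes the fetal acetylcholine receptor subunit, Tnnt2 at 0.22, the cardiac troponin T gene that immature muscle also uses, and Myog at 0.22, which encodes the differentiation factor myogenin. Nearest to Cdh15 were Elovl1 at 0.10, Sos1 at 0.12 and Tfpi at 0.12. Nearest to Cdh2 were Cdk6 and Acp5 at 0.18 and 0.19 and Car13 at 0.22. Acp5 encodes an acid phosphatase of osteoclasts and macrophages.

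For Boc the nearest were St3gal1, Cfap20 and Phka2 at 0.08, 0.08 and 0.09. For Jam2 they were Palld at 0.12, which encodes an actin-binding protein, Fbxw7 at 0.15 and Snx32 at 0.15. For Ncam1 they were Tubb6 at 0.12, a beta tubulin gene, Itgax at 0.15, a leukocyte integrin gene, and Stk17b at 0.16. Such nearness is a description of these 12 arrays, which are dominated by the gap between muscle and tumour.

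The genes that act around the 8 were examined in 8 lists. Over all genes, 30.3% were higher and 45.9% lower in TUM than in CTL, with a median of -0.15. Against TUM the shares were 13.4% and 16% in OFF3, and 14.9% and 16.6% in OFF6, with medians of 0.02 and 0.05. Without OFF6 replicate 2 the OFF6 shares were 16.2% and 18.4%. The counts of partner and marker lists are to be read beside these shares. Among 17 membrane genes of fusion, 7 were higher and 3 lower in OFF3 than in TUM, and 7 and 5 in OFF6 than in TUM, with medians of 0.15 at both times. Beside Mymx, Adam12 (1.23 ± 0.15), a membrane metalloprotease of fusing myoblasts, and Tmem182 (0.99 ± 0.13) led at day 3. Cav3 (1.73 ± 0.17), which encodes the muscle caveolin, and Tmem182 (1.5 ± 0.13) led at day 6. Cav3 and Tmem182 differed by 1.99 ± 0.09 and 1.69 ± 0.07 without OFF6 replicate 2. In TUM against CTL, 11 were higher and 6 lower, with a median of 0.46. The membrane repair protein gene Myof (3.69 ± 0.10) and the annexin Anxa1 (3.13 ± 0.11) were far higher and Tmem182 (-1.8 ± 0.13) lower. Myof and Anxa1 were lower in OFF6 than in TUM (-0.85 and -0.71), so the list did not move one way.

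Actin remodelling genes of fusion, 18 in number, had 15 higher and 1 lower in TUM than in CTL, with a median of 0.52. Dock5 (2.65 ± 0.18), Rnd3 (2.13 ± 0.11) and Elmo1 (2.09 ± 0.14) differed most. Dock5 encodes an activator of Rac and Elmo1 a partner of Dock proteins. After withdrawal falls outnumbered rises, as they did over all genes, with 2 higher and 6 lower in OFF3 and 2 and 9 in OFF6. The medians were -0.15 and -0.25, beside 0.02 and 0.05 over all genes. Arhgap10 (-0.68 ± 0.11), Dock5 (-0.68 ± 0.18) and Rnd3 (-0.46 ± 0.11) fell most by day 3. By day 6 Trio (0.62 ± 0.09) and Arhgap26 (0.56 ± 0.12) were higher and the adaptor Crk (-0.55 ± 0.06) lower. Without OFF6 replicate 2 the counts were 3 higher and 10 lower.

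Of 8 cadherin and catenin partners, 5 were higher and 3 lower in TUM than in CTL, with a median of 0.79. Cdh11 (3.31 ± 0.14), a mesenchymal cadherin, and Pcdh7 (1.81 ± 0.05) were higher and Cdh4 (-2.79 ± 0.11), which encodes R-cadherin, lower. In OFF3 against TUM, 3 were higher and 1 lower. They included Cdh11 (0.79 ± 0.14), Pcdh7 (0.35 ± 0.05) and Cdh13 (0.33 ± 0.09). The Cdh13 call was lost without TUM replicate 1 (0.31, adjusted p = 0.0685) or OFF3 replicate 2 (0.31, adjusted p = 0.0588) and with arrays centred on their median (0.28). In OFF6 against TUM, 3 were higher and 3 lower, with plakoglobin Jup (0.90 ± 0.16) and Cdh13 (0.56 ± 0.09) higher and p120 catenin Ctnnd1 (-0.42 ± 0.06) lower. The medians were 0.23 and 0.17.

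Of 22 partners of Cdon and Boc, from hedgehog ligands to the p38 kinases that act below Cdon, 21 were measured. In TUM against CTL 6 were higher and 13 lower, with a median of -0.53. The p38 activator Map2k6 (-3.35 ± 0.12) and the muscle p38 kinase Mapk12 (-2.15 ± 0.07) were lower and the hedgehog effector Gli3 (2.26 ± 0.07) higher. In OFF3 against TUM 5 were higher and 4 lower, led by Mapk11 (-1.03 ± 0.17), Map2k6 (0.72 ± 0.12) and Gas1 (0.50 ± 0.11), a hedgehog co-receptor. In OFF6 against TUM 1 was higher, Mapk12 (0.75 ± 0.07), and 5 were lower, led by Mapk11 (-0.78 ± 0.17) and Gli3 (-0.65 ± 0.07). The medians after withdrawal were 0.10 and 0.06.

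Of 7 Ncam1 partners, 4 were higher and 2 lower in TUM than in CTL, with a median of 0.78. St8sia2 (1.77 ± 0.23), which encodes an enzyme that puts polysialic acid on NCAM, led with the kinase Fyn (1.12 ± 0.10) and the growth factor receptor Fgfr1 (0.96 ± 0.06). After withdrawal 2 were higher and 1 lower in OFF3, and 3 and 1 in OFF6, or 3 and 2 without OFF6 replicate 2, with medians of 0.29 and 0.11. Fyn (0.78 ± 0.10) and the GDNF receptor Gfra1 (0.76 ± 0.11) were higher at day 3 and St8sia2 (1.06 ± 0.23), Fyn (0.86 ± 0.10) and Gfra1 (0.71 ± 0.11) at day 6. St8sia2 at day 6 was 1.42 ± 0.13 above TUM without OFF6 replicate 2. Fgfr1 (-0.19 ± 0.06, adjusted p = 0.0459) was lower at day 3. That call was lost without TUM replicate 1 (-0.21), TUM replicate 2 (-0.16), TUM replicate 3 (-0.19), OFF3 replicate 2 (-0.17) or OFF3 replicate 3 (-0.17), with quantile normalisation (-0.15) and with the replicate block (adjusted p = 0.0698).

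Of 10 Jam partners 9 were measured. In TUM against CTL 5 were higher and 4 lower, led by the leukocyte integrin Itgam (3.16 ± 0.21), the polarity kinase Prkci (1.97 ± 0.09) and the tight junction scaffold Tjp1 (1.42 ± 0.08), with a median of 0.91. In OFF3 against TUM 1 was higher and 3 lower, and in OFF6 0 and 4, or 1 and 5 without OFF6 replicate 2. The junction receptor Cxadr (-1.0 ± 0.10 and -1.02 ± 0.10) and Prkci (-0.82 ± 0.09 and -1.11 ± 0.09) fell at both times. Itgam was lower by -0.66 ± 0.21 at day 3, a call lost when any 1 of the 6 arrays was left out (-0.70 to -0.60, adjusted p = 0.0523 to 0.1), with quantile normalisation (adjusted p = 0.0502) or with the replicate block (adjusted p = 0.0547), and by -0.85 ± 0.21 at day 6. The medians were -0.04 and -0.12.

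Among 9 integrins and ligands of myoblast adhesion, 7 were higher and 2 lower in TUM than in CTL, with a median of 0.84. Vcam1 (3.78 ± 0.11) and Itga5 (2.44 ± 0.12) led, and the muscle integrin-binding Itgb1bp2 (-2.67 ± 0.09) was lower. After withdrawal 3 were higher and 1 lower in OFF3, and 3 and 3 in OFF6. Itga3 fell by 1.89 and 2.21 on the log2 scale at days 3 and 6. Itgb1bp2 rose by 1.86 and 2.58 and Itga4, a receptor for Vcam1, by 0.87 and 0.82. The medians were 0.01 and 0.11. Without OFF6 replicate 2 the counts at day 6 were 4 and 3.

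Macrophages also fuse, by other genes. Of 7 such genes 6 were higher and 0 lower in TUM than in CTL, with a median of 2.05, led by Tyrobp (2.90 ± 0.14), Trem2 (2.75 ± 0.16) and Sirpa (2.32 ± 0.09). Ocstamp (-2.45 ± 0.11 and -2.39 ± 0.11) and Dcstamp (-1.78 ± 0.09 and -1.62 ± 0.09), which encode fusion proteins of osteoclasts and giant cells, fell at days 3 and 6, while Mymk and Mymx rose. Counts were 2 higher and 2 lower in OFF3, and 0 and 3 in OFF6, or 0 and 4 without OFF6 replicate 2. Trem2 (0.55 ± 0.16) was higher in OFF3 and Cd47 (-0.38 ± 0.07) lower in OFF6. The Trem2 call was lost without any 1 of the TUM arrays (0.54 to 0.55), OFF3 replicate 1 (0.53) or OFF3 replicate 3 (0.51). All 8 macrophage markers were higher in TUM than in CTL, led by Adgre1 (3.56 ± 0.16) and Cd68 (3.38 ± 0.10). Their mean level ran from 10.66 to 10.69 in TUM and 10.77 to 10.90 in OFF3, against 7.76 to 8.0 in CTL. In OFF6 it was 10.15, 10.89 and 10.19, the high value being replicate 2. Against TUM, 2 of the 8 markers were higher and 1 lower in OFF3, and 0 and 2 in OFF6. Without OFF6 replicate 2, Cd68, Csf1r, Cd14, Mrc1 (-1.09 ± 0.08) and Itgam were lower in OFF6 than in TUM, and the rest did not pass.

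Between day 3 and day 6 the naming rule gave 15 partner genes. Cav3 (1.09 ± 0.17), St8sia2 (0.85 ± 0.23), Dock5 (0.75 ± 0.18), Itgb1bp2 (0.73 ± 0.09), Jup (0.67 ± 0.16), Mymx (0.52 ± 0.10) and Mapk12 (0.42 ± 0.07) were higher in OFF6. Adam12 (-0.67 ± 0.15), Map2k6 (-0.62 ± 0.12), Abl1 (-0.50 ± 0.08), Vcam1 (-0.43 ± 0.11), Ctnnd1 (-0.37 ± 0.06), Dock1 (-0.33 ± 0.07), Cd47 (-0.32 ± 0.07) and Fgfr1 (-0.30 ± 0.06) were lower. When the model held no arrays but those 6, none of the 15 calls held (adjusted p = 0.052 to 0.182), and over all alternatives adjusted p ran from 2.27e-08 to 0.182. Leaving out OFF6 replicate 1 or OFF6 replicate 3 ended 9 of the calls each, OFF3 replicate 1 ended 8, OFF3 replicate 2 ended 7 and OFF3 replicate 3 ended 2, while all 15 held without OFF6 replicate 2. The Vcam1 call was also lost with the replicate block (adjusted p = 0.0506).

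**Figure D4:**
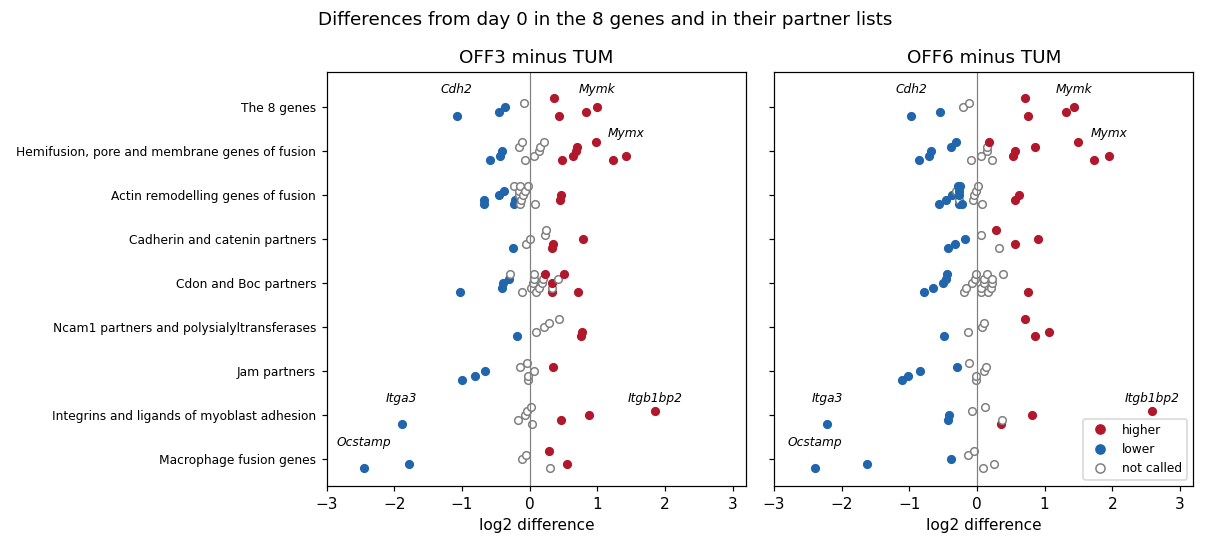
Log2 differences of the 8 genes and of their partner lists in OFF3 minus TUM and OFF6 minus TUM; each point is a gene, red where higher, blue where lower and open where the test was not passed. Mymk and Mymx lie to the right in both panels, Cdh2, Itga3 and Ocstamp to the left, and each list holds genes on both sides of 0.

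Fibre and fibroblast markers rose in the tumours after withdrawal as well. Of 12 adult fibre markers 11 were higher and 0 lower both in OFF3 and in OFF6 than in TUM (11 and 1 in OFF6 without OFF6 replicate 2, Pvalb being the lower), Pvalb (1.95 ± 0.40) and Tnni2 (1.37 ± 0.11) leading at day 3 and Myh7 (1.55 ± 0.18) and Tnni2 (1.40 ± 0.11) at day 6. Of 10 fibroblast markers 9 were higher in OFF3 and 8 in OFF6, with 0 and 1 lower, led by Dpt (2.52 ± 0.21 and 2.17 ± 0.21) and Lum (2.26 ± 0.26 and 1.75 ± 0.26). Mean fibroblast marker level was 9.75 to 9.77 in TUM, 10.95 to 11.03 in OFF3 and 10.44 to 11.08 in OFF6, against 9.70 to 9.82 in CTL. The 11.08 was OFF6 replicate 2, beside 10.45 and 10.44 on the other OFF6 arrays. The part of fibres, fibroblasts and macrophages in the levels of the 8 genes was not tested.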

How the data were processed

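RNA of 12 samples was measured on one-colour Affymetrix arrays, 3 per group, after Trizol and RNeasy extraction and biotin labelling, per the labels' protocols. The values deposited by the authors are a linear intensity per probe set, made with RMA (background correction, normalisation and probe summary), per the submitters' processing notes, and its version is not given in the sources used here. Of 34760 probe sets, 21640 carried 1 gene symbol in the platform annotation, 1321 several and 11799 none. Only the first kind was used. Log2 was taken and the brightest probe set per gene kept, leaving 19937 genes, with no filter on low values and no detection call. No RNA was counted, so precision rests on how many arrays there are.

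limma 3.58.1 (lmFit, eBayes) in R 4.3.3 estimated 1 mean for each group from the 12 arrays together. The R package data.table, version 1.17.8, read the files. Tests were two-sided, with Benjamini-Hochberg adjusted p under 0.05 in each of 6 comparisons. Plots used matplotlib 3.10.9 in Python 3.11.15. The procedure was tested on simulated data. The members and lists were chosen with earlier results of these data known. Named genes are the 8 members, Mymx, Yap1, up to 3 called genes per partner list and comparison by size of difference, up to 2 per marker list, and the 3 nearest genes of members whose group means span at least 1 log2 unit. Predicted genes were left out of the nearest ones. Of 98 partner genes 96 were measured, and of 48 marker genes 45. Alternatives were other probe set rules, filters, scalings, variance models, array weights, a replicate block, smaller models, stricter calls and leaving out each array.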

Additional observations from a re-analysis of the deposited data

How the results depend on the processing

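The limits are few arrays, an unknown number of donors and animals, and 1 deviating array. Over 660 alternative values of member differences, 611 kept the call or its absence, 38 lost the call and 11 gained it. With a call on either side, 0 reversed. A change of sign where neither value was called was counted as kept, as for Boc in OFF6 minus OFF3 (-0.046 to 0.008). A further 3564 values for 64 other named genes were added after seeing the data. By the same counting 3317 were kept, 165 lost the call, 80 gained it and 2 reversed. Uncalled changes of sign are again among the kept, as for Itga5 in OFF3 minus TUM (-0.15 to 0.04). Both reversals were of Pvalb in OFF6 minus TUM. It was -0.54 with array weights and -0.53 without OFF6 replicate 2, against 0.10 in the fit reported. Leaving out single arrays gave -0.53 to 0.43. Of 864 list counts 775 stayed within 1.5 times the reported count.

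The number of members higher in OFF3 than in TUM was 2 at adjusted p under 0.01 and 0 at 2-fold, and 2 to 3 with each array left out. The number lower was 1 at either stricter rule and 1 to 3 with an array left out. In OFF6 minus TUM, 2 were higher and 0 lower at 2-fold, and 1 was lower among genes above the median level. In that setting neither Cdon nor Jam3 was tested, in this or any other comparison. In OFF6 minus OFF3 the number higher was 5 with array weights, 1 with the replicate block, 0 with only the 6 arrays, at adjusted p under 0.01 or at 2-fold, and 0 to 5 with an array left out. In OFF3 minus CTL the number lower was 0 at either stricter rule and 0 to 0 with an array left out. The cause of these changes was not tested.

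The shared replicate numbers do not pair the arrays: correlations of same-numbered deviations ran from -0.39 to 0.25 across genes, and 10 of 36 array and group combinations matched best by number. With the replicate block, Cdon in OFF3 minus TUM had adjusted p = 0.0571 and Ncam1 in OFF6 minus OFF3 adjusted p = 0.0603. Among other named genes the block also ended the calls of Fgfr1, Itgam and Sirpa in OFF3 minus TUM, of Emcn in OFF6 minus TUM, and of Emcn, Gli3 and Vcam1 in OFF6 minus OFF3, and made that of Gas1 there. The scalings moved the median gene by at most 0.07 in size (-0.07 to 0.04).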
